A study of Mus musculus with 3 samples.

Results

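The 32 genes described here make ribosomes or belong to the growth program driven by Myc, and they were taken as a fixed list from the 32285 genes of a single-cell RNA data set on mouse spleen B cells. The list holds Myc itself, 27 genes of ribosome synthesis and RNA modification and 4 genes of polyamine and nucleotide synthesis (Srm, Odc1, Cad and Nme1), and every one of them had counts in the 3 libraries. The cells came from the spleens of female wild-type BXD2 mice, with 3 mice per treatment. BXD2 is an inbred line with lupus-like disease. IL-4+R848 mice were injected with 5 µg of IL-4 bound to 25 µg of an antibody against IL-4, which prolongs its action, and 2 hours later with R848, a synthetic compound that activates TLR7, dosed at 40 µg for each 20 g of weight. In the R848 group, the antibody was injected alone, at 25 µg, before the same dose of R848. Dosing was repeated after 2 days, and B cells were purified by negative selection after 2 more days. Each treatment had its own hashtag antibody, and each of 3 libraries, called sets 1 to 3, mixed cells of both. The labels do not say whether a set holds one animal of each treatment, so p-values compare the treatments with differences among the 3 sets, and these could be technical. The ages of the mice are not in the labels.

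Ribosome synthesis starts in the nucleolus, where RNA polymerase I transcribes the ribosomal RNA precursor. Small nucleolar ribonucleoproteins (snoRNPs) then modify that precursor, and processing and assembly factors cut it and build the small and large subunits. Myc binds promoters of many of these genes, often at the E-box sequence CACGTG, and raises their transcription when a cell prepares to grow. In B cells, receptor, TLR and cytokine signals induce Myc within hours, and the growth that follows precedes division.

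The E-box stood in the promoter window of 7 of the 25 members listed in the RefSeq promoter table (28.0%), against 8.09% of the 27025 genes in it. A window ran from 250 bases before to 50 bases after an annotated start. The motif reads the same on both strands. The 7 members were Nme1, Mybbp1a, Pes1, Wdr43, Mdn1, Utp20 and Pus7. The 5 with the highest level in follicular-like cells are printed because Nme1 and Mdn1 are among the members that changed, and the other 3 act in ribosomal RNA synthesis and in assembly of both subunits. They are written 5′ to 3′ on the gene's strand from RefSeq on GRCm38.p6, with the E-box in capitals. The windows lie at chr11:93968223-93968522 on the minus strand for Nme1, and on the plus strand at chr11:72441077-72441376 for Mybbp1a, chr11:3963725-3964024 for Pes1, chr17:71615965-71616264 for Wdr43 and chr4:32656869-32657168 for Mdn1.
Nme1: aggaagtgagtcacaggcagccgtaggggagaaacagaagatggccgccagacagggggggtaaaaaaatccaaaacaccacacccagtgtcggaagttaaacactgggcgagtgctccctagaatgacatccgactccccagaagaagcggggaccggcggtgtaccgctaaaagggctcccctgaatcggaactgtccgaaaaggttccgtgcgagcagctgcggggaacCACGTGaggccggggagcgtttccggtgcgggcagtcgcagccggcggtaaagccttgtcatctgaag
Mybbp1a: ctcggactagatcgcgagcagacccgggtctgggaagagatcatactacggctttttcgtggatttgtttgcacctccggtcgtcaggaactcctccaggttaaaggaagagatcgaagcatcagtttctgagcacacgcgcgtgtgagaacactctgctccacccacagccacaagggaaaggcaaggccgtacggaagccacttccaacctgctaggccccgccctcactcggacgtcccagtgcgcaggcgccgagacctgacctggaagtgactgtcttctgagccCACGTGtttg
Pes1: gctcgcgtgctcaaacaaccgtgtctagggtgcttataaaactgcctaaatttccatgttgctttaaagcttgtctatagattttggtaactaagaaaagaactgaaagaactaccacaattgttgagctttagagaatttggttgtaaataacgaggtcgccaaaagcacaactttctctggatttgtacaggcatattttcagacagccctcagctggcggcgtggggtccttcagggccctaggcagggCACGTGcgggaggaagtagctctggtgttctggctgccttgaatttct
Wdr43: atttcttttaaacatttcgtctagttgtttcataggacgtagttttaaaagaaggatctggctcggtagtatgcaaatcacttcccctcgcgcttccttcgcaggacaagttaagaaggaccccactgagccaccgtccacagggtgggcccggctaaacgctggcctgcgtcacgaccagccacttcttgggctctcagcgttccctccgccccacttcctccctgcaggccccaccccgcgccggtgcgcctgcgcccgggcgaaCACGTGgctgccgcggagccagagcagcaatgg
Mdn1: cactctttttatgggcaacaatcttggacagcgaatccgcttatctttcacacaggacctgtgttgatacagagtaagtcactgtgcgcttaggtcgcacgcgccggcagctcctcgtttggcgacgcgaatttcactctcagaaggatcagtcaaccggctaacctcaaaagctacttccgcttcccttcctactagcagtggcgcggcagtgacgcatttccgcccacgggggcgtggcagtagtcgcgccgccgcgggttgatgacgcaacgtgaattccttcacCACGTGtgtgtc
The E-box began 18 bases before the annotated start of the Nme1 window printed, which is 1 of 2 windows of that gene. The gene position given below for Nme1 begins further upstream, at chr11:93968521. In the windows of the other 4 genes the E-box began after the start. A match describes these letters and is not a measured Myc site.

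The libraries held 11389 to 14519 barcodes with median counts of 4957 to 6580 UMIs (unique molecular identifiers, each counting 1 captured RNA molecule). After removal of barcodes with both hashtags and of poor cells, 4579 to 5125 IL-4+R848 cells and 5641 to 7530 R848 cells per set were kept. The treatments differed in depth, with medians of 5199 to 6995 UMIs per IL-4+R848 cell and 4445.5 to 5932 UMIs per R848 cell. Pairs of libraries shared 219 to 289 barcode sequences. Clusters were drawn without the members and named from marker genes. Clusters called follicular-like raised 4 to 6 of 6 follicular markers, the transitional-like cluster raised 4 of 5, and marginal zone-like and germinal center-like clusters raised 8 of 8. Follicular-, transitional- and activated-like cells are called naive below. The name is shorthand for these pooled classes, since the activated-like cluster raised 8 of 8 activation markers. A cluster led by S100a6 and Zbtb32 raised 4 of 7 age-associated B cell markers but not Itgax, the gene for CD11c, and is called the Zbtb32 cluster. NK cell-like cells made up 0.807% of IL-4+R848 cells and 0.380% of R848 cells and entered no class comparison.

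The members together took 0.326% of all UMIs in the kept cells, and Npm1, which encodes the abundant nucleolar chaperone nucleophosmin, supplied 30.7% of that sum. To compare cells of unequal depth, each cell was thinned to 2000 UMIs. Cells with fewer UMIs, 2090 of 35102 kept cells, were left out of the values per cell. In transitional-like cells these were 59 of 928 IL-4+R848 cells and 226 of 1699 R848 cells. In activated-like cells the summed member level was 9.30 ± 1.47 UMIs per 2000 with IL-4+R848 and 8.94 ± 0.64 with R848 (SD, n = 3 sets each). Germinal center-like cells had 9.21 ± 0.20 UMIs with IL-4+R848 and 9.39 ± 0.44 with R848, and neither class differed between treatments by more than its spread. These were the 2 highest classes under IL-4+R848. Follicular-like cells were lower, at 5.98 ± 0.05 UMIs with IL-4+R848 and 6.10 ± 0.05 with R848, and plasmablast-like cells were lowest, at 3.11 ± 0.14 with IL-4+R848 and 2.94 ± 0.22 with R848. In plasmablast-like cells immunoglobulin RNA takes up much of the counts, which lowers every other gene on this scale.

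Single members had different orders. Under R848, 14 members had their highest mean in germinal center-like cells and 12 in activated-like cells, on CPM (counts scaled by library size) normalised across the class sums. Myc was highest in activated-like cells, at 513, 768 and 416 CPM in sets 1 to 3 with IL-4+R848 and at 785, 809 and 730 CPM with R848. Germinal center-like cells, in which Myc is known to be restricted to few cells, had 76.2, 92.2 and 104 CPM with IL-4+R848 and 87.3, 74.0 and 101 CPM with R848. Marginal zone-like cells came next to activated-like cells in Myc, at 380, 445 and 291 CPM with IL-4+R848 and 760, 663 and 600 CPM with R848. Srm, the spermidine synthase gene, was highest in plasmablast-like cells, at 429, 328 and 402 CPM with IL-4+R848 and 332, 316 and 478 CPM with R848. So the class with the lowest member sum held the highest Srm level, and the class with the highest sum under R848 had a low Myc level.

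**Figure D1:**
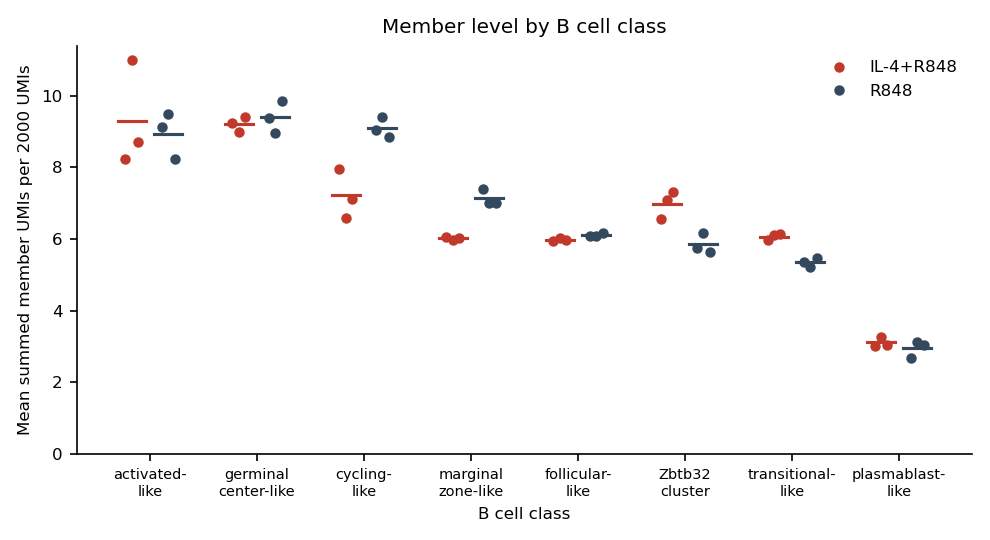
Mean summed UMIs of the 32 members per cell after thinning to 2000 UMIs (y axis) in each B cell class (x axis), with 1 point per set and lines at the mean of 3 sets, IL-4+R848 in red and R848 in blue. The IL-4+R848 points lie above the R848 points in transitional-like cells and the Zbtb32 cluster, and below them in marginal zone-like and cycling-like cells.

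Few members differed between the treatments in the most numerous naive class, and their number changed with how cells were filtered and classed. In follicular-like cells, 1 of 32 members rose (Nme1) and 1 fell (Odc1), where 7% of the 11360 genes tested rose and 6.28% fell. The median log2 fold change of the members was 0.03, beside -0.01 over all genes. Nme1 (chr11:93956979-93968521, minus strand; GRCm38, GENCODE vM21) encodes a nucleoside diphosphate kinase. It had 216, 221 and 230 CPM in sets 1 to 3 of IL-4+R848 cells, against 186, 183 and 193 CPM in R848 cells. The groups did not overlap, and the log2 fold change was 0.24 ± 0.05 (SE; edgeR quasi-likelihood test, Benjamini-Hochberg (BH) adjusted p = 0.0074). Odc1 (chr12:17544794-17551505, plus strand) encodes ornithine decarboxylase, the entry enzyme of polyamine synthesis. It had 40.0, 40.99 and 41.2 CPM in IL-4+R848 cells, against 64.3, 61.5 and 51.2 CPM in R848 cells. Every IL-4+R848 set was below every R848 set, with a log2 fold change of -0.53 ± 0.08 (adjusted p = 0.0015 in edgeR). With set 2 left out, no member rose in follicular-like cells and Odc1 still fell by 0.50 on the log2 scale. With set 3 left out, Nop10 and Nme1 rose and Odc1 and Myc fell. With looser cell filters, which also redrew the clusters, 10 members rose and Odc1 fell, and the members' median log2 fold change was 0.14. In that drawing a cluster of 619 cells led by Pus7, Hspd1 and Mdn1 was named marginal zone-like, with 3 of 8 markers raised. Its part in these counts was not tested. With clusters that kept the genes called between treatments, 7 rose and Odc1 fell, with a median of 0.08. Markers moved in this class too. Of 6 follicular markers 1 rose and 3 fell, with sums of 2604 to 2771 CPM with IL-4+R848 and 3125 to 3741 CPM with R848. Of 8 activation markers 1 rose and 4 fell, with sums of 1160 to 1194 CPM with IL-4+R848 and 949 to 1197 CPM with R848. The part of these shifts in the member results was not tested.

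Myc (chr15:61985391-61990374, plus strand) had 168, 165 and 116 CPM in follicular-like IL-4+R848 cells, against 238, 206 and 177 CPM in R848 cells. All IL-4+R848 sets were below all R848 sets, but the log2 fold change of -0.47 ± 0.14 missed the threshold (adjusted p = 0.0501 in edgeR). Cells of both treatments in a set shared a library, and with the set as a block 5 members rose and 3 fell. The share of all genes called under the block was not counted, so these numbers cannot be set against it. Nop10 and Nhp2, of the H/ACA snoRNPs that guide pseudouridylation, Fbl, the methyltransferase of the C/D snoRNPs, and Pes1, of large subunit assembly, then rose by 0.21, 0.15, 0.16 and 0.17 on the log2 scale, beside Nme1. Myc, Odc1 and Mdn1, a large ATPase that remodels pre-60S particles, fell under the block, with Myc at -0.48 (adjusted p = 4.3e-04 in edgeR).

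By role, the 4 H/ACA members had log2 fold changes between 0.03 and 0.21 in follicular-like cells, and the 3 C/D members between 0.07 and 0.18. The 4 small subunit processing members (Rrp9, Rrp12, Utp20 and Wdr43) lay between -0.11 and 0.05. The 8 large subunit members (Bop1, Pes1, Wdr12, Rrs1, Mdn1, Wdr74, Nop16 and Gnl3) lay between -0.25 and 0.17, and the 3 members of RNA polymerase I transcription (Polr1a, Polr1b and Mybbp1a) between -0.06 and 0.12. The nucleolar proteins Ncl, Npm1 and Ddx21 lay between 0.03 and 0.08. Nolc1, a snoRNP chaperone, Pus7, a pseudouridine synthase, and the metabolic genes Srm and Cad were at -0.05, -0.13, 0.10 and -0.05. Without the block, with all sets and the filters used throughout, none of these 29 genes passed the threshold. Other settings without the block did call some, such as Nop10 with set 3 left out or without the count filter, and Mdn1 under stricter hashtags.

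**Figure D2:**
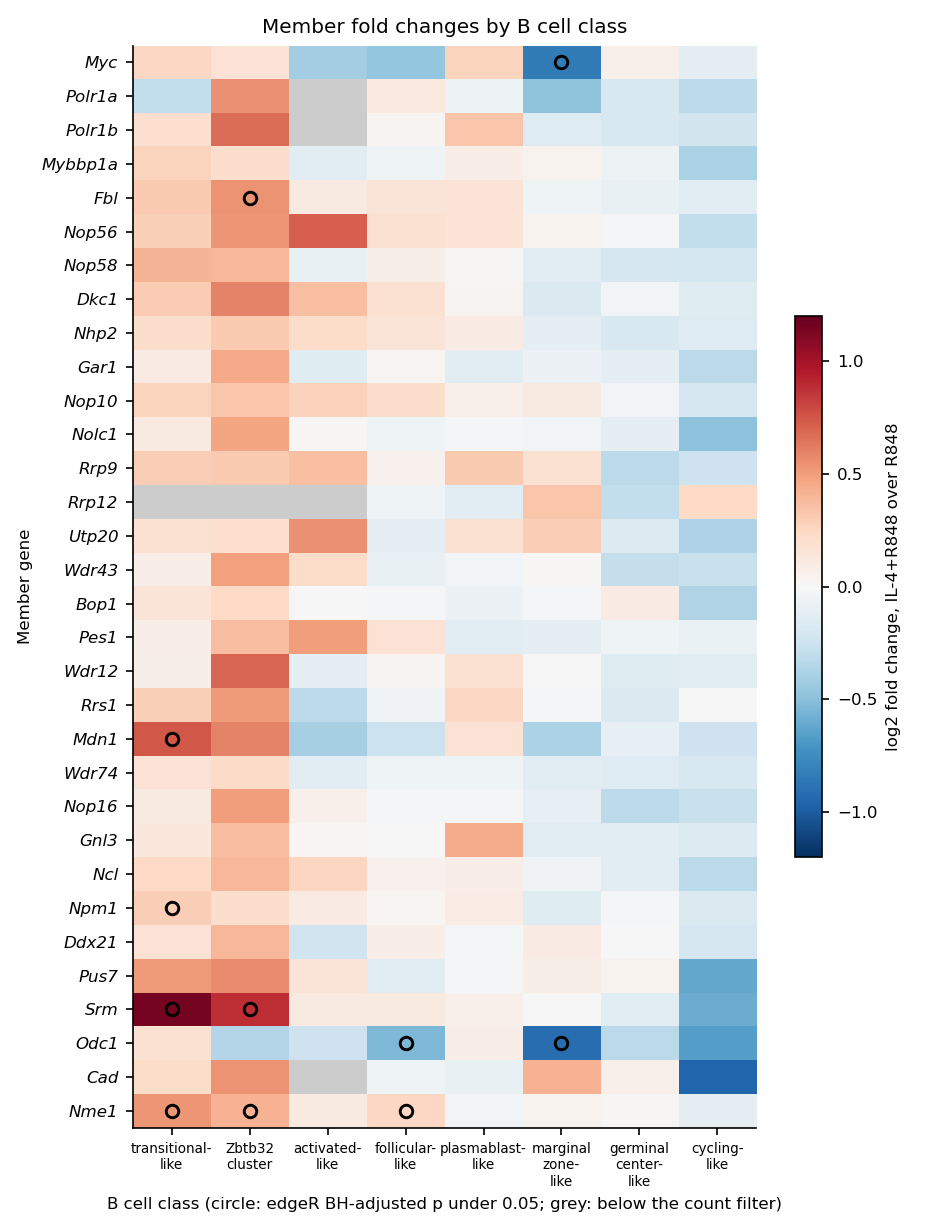
Log2 fold change of IL-4+R848 over R848 (colour) for the 32 members, ordered by role (rows), in 8 B cell classes (columns); circles mark members past the edgeR threshold and grey cells were below the count filter. The transitional-like column and the Zbtb32 column are red in 30 of 31 members each, and the cycling-like column is blue in 30 of 32.

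In transitional-like cells, the newly arrived stage before the mature follicular cell, 4 of 31 members rose and none fell, where 3.88% of 8269 genes rose and 2.78% fell. The list's median log2 fold change was 0.22, beside -0.01 over all genes, and 30 of 31 members were above 0. Rrp12 was below the count filter. Srm had 81.3, 63.99 and 68.4 CPM with IL-4+R848, against 37.3, 25.9 and 31.98 CPM with R848, a log2 fold change of 1.15 ± 0.16 (adjusted p = 6.3e-04 in edgeR). The lowest IL-4+R848 set was well above the highest R848 set. Nme1 had 267, 248 and 269 CPM with IL-4+R848, against 172, 186 and 187 CPM with R848, a log2 fold change of 0.53 ± 0.08 (adjusted p = 0.0016 in edgeR). Npm1 had 891, 892 and 879 CPM with IL-4+R848, against 724, 724 and 726 CPM with R848, a log2 fold change of 0.29 ± 0.06 (adjusted p = 0.0083 in edgeR). Both genes were separated between the treatments in each set. Mdn1 had 38.8, 25.0 and 32.5 CPM with IL-4+R848, against 17.8, 21.0 and 18.2 CPM with R848, a log2 fold change of 0.75 ± 0.20 (adjusted p = 0.046 in edgeR). Without set 1 or without set 2, only Srm and Nme1 passed, and without set 3, Srm, Npm1 and Nme1 passed.

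Myc did not pass in transitional-like cells. It had 85.0, 84.3 and 62.4 CPM with IL-4+R848, against 71.4, 64.8 and 58.5 CPM with R848, overlapping ranges with a log2 fold change of 0.25 ± 0.14 (adjusted p = 0.40 in edgeR). When cells were instead classed from clusters that kept the genes called between treatments, no member rose in transitional-like cells and Myc fell by 1.03 on the log2 scale. With looser cell filters, which also redrew the clusters, 5 members rose and none fell. Shares of the class also differed, at 6.27 ± 0.99% of IL-4+R848 cells and 8.30 ± 0.67% of R848 cells (SD, n = 3). Markers of B cell stages moved in the same cells. Of 5 transitional markers 2 fell and none rose, with sums of 1590 to 1887 CPM with IL-4+R848 and 2570 to 2634 CPM with R848. Of 6 follicular markers 4 fell, with sums of 2535 to 2836 CPM with IL-4+R848 and 3088 to 4253 CPM with R848, and 3 of 7 marginal zone markers fell. The part of these shifts in the rise of the members was not tested.

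Activated-like cells, a single cluster led by Nfkbid, Nr4a1 and Egr2, showed no called member among 28 tested, where 0.837% of 5499 genes rose and 0.346% fell by edgeR. DESeq2 also called none, and at an unadjusted p under 0.05 there were 3 members by edgeR, where 9.62% of all genes were. Sums held 54 to 59 IL-4+R848 cells and 138 to 179 R848 cells. Myc had 544, 810 and 446 CPM in IL-4+R848 sums, against 819, 837 and 755 CPM in R848 sums, each IL-4+R848 set below its own R848 set but with set 2 inside the R848 range. Its log2 fold change was -0.41 ± 0.17 (adjusted p = 0.44 in edgeR). Without the count filter Myc fell, by 0.45 (adjusted p = 0.0056 in edgeR), and with looser cell filters by 0.61 (adjusted p = 0.021 in edgeR).

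Over all naive cells pooled, 1 member rose and 2 fell, where 7.47% of 11535 genes rose and 6.58% fell. Nme1 had 220, 224 and 234 CPM with IL-4+R848, against 185, 186 and 193 CPM with R848, and its log2 fold change was 0.26 ± 0.05 (adjusted p = 0.0042 in edgeR). Odc1 had 41.3, 43.0 and 41.6 CPM with IL-4+R848, against 64.4, 61.4 and 50.9 CPM with R848, and Myc had 171, 172 and 118 CPM with IL-4+R848, against 245, 220 and 186 CPM with R848. They fell by 0.49 and 0.50 on the log2 scale (adjusted p = 0.0028 and 0.037 in edgeR). With the set as a block, 7 members rose and 2 fell; Nop56 and Dkc1 rose besides those named for follicular-like cells. With looser cell filters, which redrew the clusters, 10 rose and none fell. The cluster led by Pus7, Hspd1 and Mdn1 then lay outside the naive classes, under the marginal zone-like name. Without set 1 or without set 2 only Odc1 fell, and without set 2 no member rose.

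Marginal zone-like cells, which respond fast to blood-borne antigen, had 2 members that fell and none that rose, where 2.14% of 9250 genes fell and 2.4% rose. Myc had 392.3, 459 and 301 CPM with IL-4+R848, against 777, 678 and 614 CPM with R848. Its log2 fold change was -0.84 ± 0.13 (adjusted p = 0.0011 in edgeR). Odc1 had 52.4, 48.8 and 57.3 CPM with IL-4+R848, against 99.9, 114 and 83.6 CPM with R848, a log2 fold change of -0.92 ± 0.12 (adjusted p = 4.5e-04 in edgeR). For both genes the highest IL-4+R848 set was below the lowest R848 set. The other 30 members had fold changes from -0.49 to 0.42 and did not pass. With clusters that kept the genes called between treatments neither gene passed, and with looser cell filters 7 members fell. The looser drawing placed the cluster led by Pus7, Hspd1 and Mdn1 in this class, with 3 of 8 marginal zone markers raised. Its part in the 7 falls was not tested. The markers of the class moved too: 5 of 8 marginal zone markers fell and none rose, with sums of 575 to 614 CPM with IL-4+R848 and 916 to 962 CPM with R848. Of 6 follicular markers 2 rose and 1 fell. The part of these shifts in the fall of Myc and Odc1 was not tested.

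**Figure D3:**
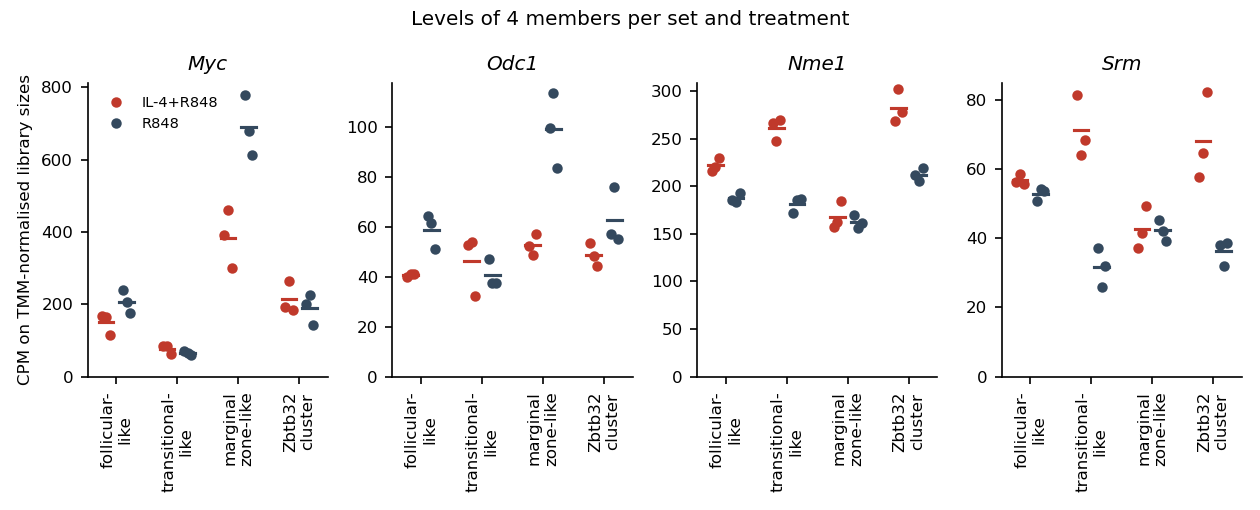
CPM on TMM-normalised library sizes (y axes, each from 0) of Myc, Odc1, Nme1 and Srm in 4 B cell classes (x axis), with 1 point per set and lines at the mean, IL-4+R848 in red left of R848 in blue. In marginal zone-like cells Myc and Odc1 are lower with IL-4+R848 in every set, and in transitional-like cells Srm and Nme1 are higher.

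In the Zbtb32 cluster 3 of 31 members rose and none fell, where 1.6% of 8329 genes rose and 0.96% fell. The median log2 fold change was 0.41, beside 0.00 over all genes, with 30 of 31 members above 0. Srm had 57.8, 64.6 and 82.2 CPM with IL-4+R848, against 38.1, 31.97 and 38.6 CPM with R848, a log2 fold change of 0.89 ± 0.16 (adjusted p = 0.017 in edgeR). Fbl had 152, 173 and 182 CPM with IL-4+R848, against 123, 119 and 106 CPM with R848, and Nme1 had 268, 302 and 278 CPM with IL-4+R848, against 212, 206 and 219 CPM with R848. They rose by 0.54 and 0.41 on the log2 scale (adjusted p = 0.040 and 0.047 in edgeR). Myc did not pass, at 193, 263 and 184 CPM with IL-4+R848, against 200, 227 and 143 CPM with R848. The calls rested on all sets: without set 1 only Srm passed, and without set 2 or set 3 no member passed. Of 6 tested age-associated markers, the list raised in this cluster, 4 fell, with sums of 249 to 310 CPM with IL-4+R848 and 410 to 514 CPM with R848 and a median log2 fold change of -0.91. Of 3 transitional markers 2 rose, and their part in the rise of the members was not tested.

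In cycling-like cells no member was called by edgeR with the count filter. Of 32 members, 30 had log2 fold changes below 0, with a median of -0.23 beside 0.00 over all genes. By edgeR 1.17% of 8999 genes rose and 0.511% fell, and 12 members had an unadjusted p under 0.05, where 12.4% of all genes did. Without the count filter 5 members fell (Ncl, Srm, Cad, Odc1 and Nolc1), and with clusters that kept treatment genes Odc1 fell. Myc had 158, 167 and 113 CPM with IL-4+R848, against 158, 156 and 159 CPM with R848, with a log2 fold change of -0.11 ± 0.13. In germinal center-like cells no member was called by edgeR, where 0.237% of 9724 genes rose and 0.0823% fell, and 4 had an unadjusted p under 0.05, beside 7.84% of all genes. Myc was at 87.9, 108 and 121 CPM with IL-4+R848 and 102, 85.5 and 115 CPM with R848. In plasmablast-like cells 0% of 9758 genes, and no member, rose or fell by edgeR, and 1 member had an unadjusted p under 0.05, beside 4.83% of all genes. Myc was at 20.7, 24.5 and 22.1 CPM with IL-4+R848 and 21.2, 21.1 and 13.6 CPM with R848 in these cells. DESeq2 also called no member in germinal center- or plasmablast-like cells, and in cycling-like cells it called Odc1, which fell.

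Differences between classes in the IL-4 effect were tested directly against follicular-like cells in 1 edgeR fit of 10432 genes. No member passed in any of 7 classes. The share of all genes that passed was 0% for activated-like cells, 0.0575% for transitional-like and for cycling-like cells, 0.125% for marginal zone-like cells and 0.153% for the Zbtb32 cluster. It was 1.28% for plasmablast-like and 1.48% for germinal center-like cells. At an unadjusted p under 0.05 there were 13 members for the Zbtb32 cluster, 12 for cycling-like cells, 6 for transitional-like cells and 2 or fewer for each other class. Over all genes that share was 5.19% for transitional-like cells, 5.93% for cycling-like cells and 6.95% for the Zbtb32 cluster. When the set entered as a block, Mdn1 passed for transitional-like cells, where its log2 fold change was 1.00 ± 0.21 higher than in follicular-like cells (adjusted p = 0.045 for the interaction in edgeR). The transitional and marginal zone results above are therefore not shown to differ from the follicular one for any other member.

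An antibody gate gave a different cut through the cells. Cells at or above the median IgD antibody count of their set, whatever their cluster, held no member that rose and 3 that fell, where 5.51% of 11551 genes rose and 3.71% fell. Myc had 172, 180 and 125 CPM with IL-4+R848, against 290, 251 and 211 CPM with R848, and Odc1 had 45.3, 45.4 and 52.0 CPM with IL-4+R848, against 88.8, 77.3 and 62.6 CPM with R848. They fell by 0.66 and 0.68 on the log2 scale (adjusted p = 0.047 and 0.017 in edgeR). Mdn1 had 24.7, 25.6 and 24.0 CPM with IL-4+R848, against 28.5, 29.1 and 30.4 CPM with R848, and fell by 0.24 (adjusted p = 0.022 in edgeR). The gate held 54.1 to 56.1% of IL-4+R848 cells and 45.2 to 47.2% of R848 cells. Without set 1 or without set 2 no member passed. Over all kept cells only Odc1 was called, where 5.54% of 13024 genes rose and 4.02% fell. Its levels were 81.6, 62.6 and 72.8 CPM with IL-4+R848, against 118, 121 and 107 CPM with R848, a log2 fold change of -0.67 ± 0.10 (adjusted p = 0.013 in edgeR), and it did not pass without set 2 or without set 3. Myc over all kept cells had 144, 169 and 113 CPM with IL-4+R848, against 214, 182 and 154 CPM with R848 and did not pass (adjusted p = 0.22 in edgeR).

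Other genes of the same pathways, in lists chosen with earlier results of these data known, moved in small numbers. In follicular-like cells 7 of 100 other ribosome biogenesis genes rose and 2 fell, a share of rises equal to the 7% over all genes. Ddx54, an RNA helicase, was at 131 ± 0.87 CPM with IL-4+R848 and 90.8 ± 4.49 CPM with R848, and Rcl1, of small subunit processing, at 37.2 ± 3.52 CPM with IL-4+R848 and 27.5 ± 1.36 CPM with R848 (SD, n = 3). Among 12 other RNA polymerase I genes only Polr1d rose, by 0.22 on the log2 scale. In the Myc network of 8 tested genes, Mxd4, an antagonist that pairs with Max, rose by 0.30, while Mnt, another such antagonist, fell by 0.30. Of 37 other Myc targets 2 rose and 1 fell: the DNA repair enzyme gene Apex1 by 0.53 and Nme2 by 0.19 upward, and the cyclin gene Ccnd2 with a log2 fold change of -0.99. Sat1, which encodes the polyamine-acetylating enzyme, was the only one of 8 other polyamine genes called, at -0.45.

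In transitional-like cells, where 3.88% of all genes rose, 3 of 99 other ribosome biogenesis genes rose (Wdr75, Rcl1 and Ddx54, by 0.74, 0.72 and 0.42), and none fell. Of 34 other Myc targets 5 rose and 1 fell, Apex1 and Nme2 rising by 0.59 and 0.50 and Ccnd2 at -1.17. Of 12 other RNA polymerase I genes Polr1e rose, by 0.83. In the Zbtb32 cluster no other ribosome biogenesis gene of 97 was called, Apex1 and Shmt2 rose by 1.02 and 0.51, and Sat1 was at -0.80. In marginal zone-like cells Ddx54 rose by 0.36, and Impdh2, of guanine nucleotide synthesis, was at -0.36 with Ccnd2 at -0.51.

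Genes that handling of tissue is known to induce also differed between the treatments, in classes where members fell and in classes where members rose. In follicular-like cells, where 6.28% of all genes fell, 9 of 13 tested genes of that list fell and none rose, among them Fos, Fosb and Dusp1 at -1.50, -1.42 and -1.39. Their summed level was 2553 to 2842 CPM with IL-4+R848, against 3538 to 5129 CPM with R848. In marginal zone-like cells 7 of 12 fell, with sums of 2879 to 3333 CPM with IL-4+R848 and 3611 to 5293 CPM with R848. In transitional-like cells 3 of 12 fell, with sums of 3764 to 4817 CPM with IL-4+R848 and 4734 to 6275 CPM with R848. In the Zbtb32 cluster 4 of 12 fell, with sums of 2545 to 2608 CPM with IL-4+R848 and 2873 to 3854 CPM with R848. No gene of the list was called in activated-, germinal center- or plasmablast-like cells, where at most 0.837% of all genes rose and 0.346% fell. Over all kept cells 5 of 14 fell and 1 rose, where 4.02% of all genes fell and 5.54% rose. The gene that rose was Hspa1b, at 4.37 ± 3.26 CPM with IL-4+R848 and 0.69 ± 0.07 CPM with R848 (SD, n = 3). Myc and Odc1 also respond early to stimulation, and the part of handling in their fall was not tested.

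All 13 naive clusters held members, and those highest in them differed between treatments in different ways. The cluster with the highest member level, called cluster 10, was led by other genes of the same program that the list does not hold (Ppan, Atad3a, Mettl1, Rrp1b and Ipo4) and by the members Pus7, Mdn1 and Rrp9, although no member was used to draw it. With looser cell filters, a cluster that shared Pus7, Mdn1, Atad3a, Rrp1b and Ppan among its leading genes was named marginal zone-like. Cluster 10 raised 4 of 6 follicular markers. It made up 5.04, 5.21 and 4.28% of naive cells with IL-4+R848, against 5.78, 6.95 and 7.87% with R848. Its cells held 11.1, 10.2 and 10.1 member UMIs per 2000 with IL-4+R848, against 14.4, 13.8 and 12.9 with R848. So it was smaller and lower in members with IL-4+R848 in 3 of 3 sets. It held 9.33, 8.65 and 7.21% of the member UMIs of naive cells with IL-4+R848, against 13.6, 15.8 and 16.4% with R848. These values describe a cluster picked after its levels were seen and carry no test.

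Another follicular-like cluster, cluster 7, went the other way. It was led by Gadd45g, Il4i1, a gene named for its induction by IL-4, and Pkib. It made up 9.99, 10.9 and 10.7% of naive cells with IL-4+R848, against 4.84, 4.52 and 4.96% with R848. Its cells held 8.49, 8.58 and 8.57 member UMIs per 2000 with IL-4+R848, against 7.70, 7.35 and 7.80 with R848. The activated-like cluster made up 1.70, 1.63 and 1.49% of naive cells with IL-4+R848, against 4.13, 3.95 and 3.4% with R848. Since IL-4 also changes the genes that draw clusters, 2224 genes called between treatments were left out of the clustering, but fewer cells of a kind and a change in the genes by which cells are clustered cannot be told apart here.

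**Figure D4:**
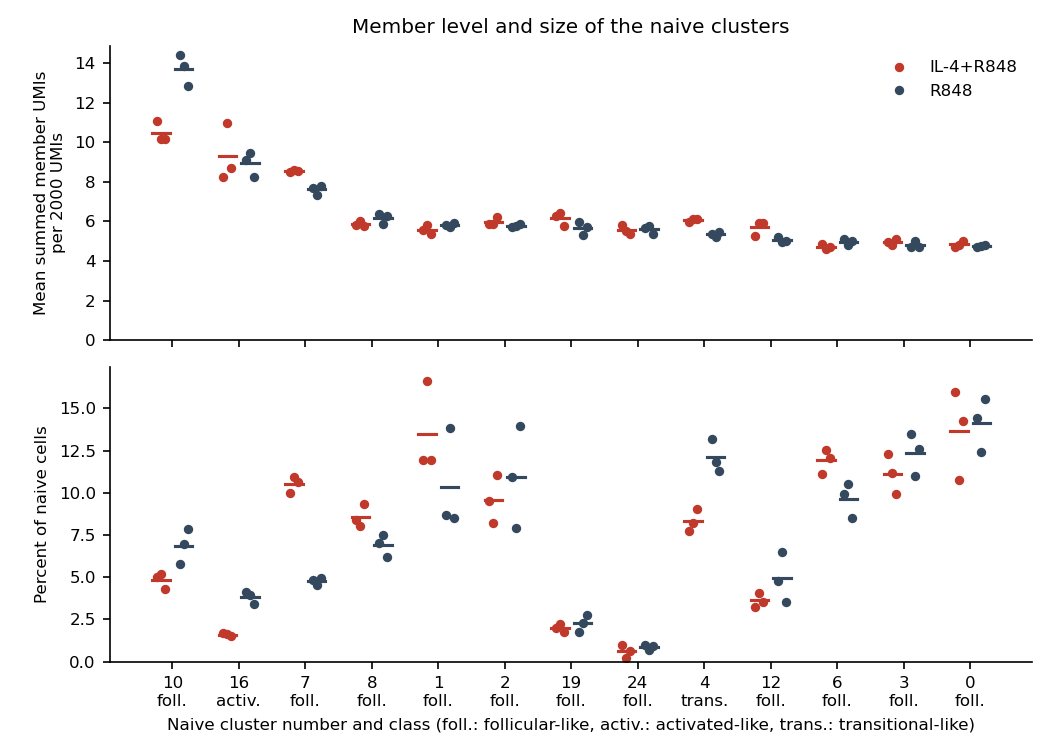
Mean summed member UMIs per 2000 (upper panel) and percent of naive cells (lower panel) for the 13 naive clusters, with 1 point per set and lines at the mean, IL-4+R848 in red left of R848 in blue. Cluster 10 is lower and smaller with IL-4+R848 in every set, and cluster 7 is higher and larger.

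Inside cluster 10, 29 of 32 members were lower with IL-4+R848 in all 3 sets and none was higher in all 3. Of 7057 genes at 10 CPM or more, 29.6% were lower and 13.9% higher in all 3 sets. On plain CPM without TMM scaling, which moves the median of all genes at 10 CPM or more by -0.09 in these cells, the members' median log2 ratio was -0.36. Myc had 218, 204 and 190 CPM with IL-4+R848, against 449, 379 and 330 CPM with R848. Srm had 182, 167 and 166 CPM with IL-4+R848, against 267, 252 and 242 CPM with R848. Npm1 had 1467, 1337 and 1293 CPM with IL-4+R848, against 1916, 1845 and 1719 CPM with R848. For each of these the highest IL-4+R848 set was below the lowest R848 set.

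Outside cluster 10 members were found on both sides. In the remaining naive cells 9 members were higher and 8 lower with IL-4+R848 in all 3 sets, where 10.7% of 7097 genes were higher and 60.7% lower on this scale. The members' median log2 ratio was 0.01, beside -0.13 over all genes. In follicular-like cells without cluster 10, 13 members were higher and 6 lower in all 3 sets, where 11.1% of 7058 genes were higher and 57.8% lower. On TMM-scaled values, the members' median log2 fold change was above 0 in each of the 9 other follicular-like clusters that were fitted, at 0.01 to 0.33, and below 0 in cluster 10, at -0.28. In cluster 2, for example, 28 members were above 0 and 4 below, and in cluster 7, 26 were above and 6 below. By summed member UMIs per thinned cell, clusters 1, 6 and 8 had lower means with IL-4+R848. They were 5.58, 4.71 and 5.86 with IL-4+R848, against 5.83, 4.97 and 6.15 with R848. Cluster 6 was lower in every set, and clusters 1 and 8 in all but set 2. Clusters 0, 2, 3, 7, 12 and 19 had higher means. On UMIs of other genes, clusters 1, 6 and 8 were again lower in the mean, but only cluster 8 in every set. The values in the rest of this paragraph are plain CPM. In all naive cells outside cluster 10, Srm had 47.6, 52.2 and 49.6 CPM with IL-4+R848, against 38.5, 38.7 and 37.1 CPM with R848. Nme1 had 194, 200 and 210 CPM with IL-4+R848, against 163, 162 and 163 CPM with R848. Myc remained lower, at 160, 162 and 107 CPM with IL-4+R848, against 243, 218 and 179 CPM with R848. Odc1 was at 36.9, 37.6 and 36.3 CPM with IL-4+R848, against 57.0, 49.7 and 41.4 CPM with R848. Over all naive cells the treatments differed in Srm by less than the spread between sets, at 55.4, 58.6 and 54.6 CPM with IL-4+R848, against 54.9, 58.3 and 55.4 CPM with R848, and its levels outside cluster 10 and inside it differed in opposite directions.

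The mean over naive cells splits into these parts. It was 5.98, 6.12 and 6.02 member UMIs per 2000 with IL-4+R848, against 6.10, 6.10 and 6.15 with R848, differences of -0.12, 0.02 and -0.13. Cluster 10 contributed -0.27, -0.43 and -0.58, through its share and its level, and the other 12 naive clusters 0.15, 0.45 and 0.45. The sign of the total depended on scale. Ribosomal protein genes, which are no members, took 37.6 ± 0.32% of naive UMIs with IL-4+R848 and 34.2 ± 0.72% with R848. When cells were thinned to 1200 UMIs of genes other than immunoglobulin, mitochondrial and ribosomal protein genes, the total differences became 0.24, 0.15 and 0.16. On that scale cluster 10 still contributed -0.24, -0.39 and -0.48, and the other clusters 0.48, 0.55 and 0.65. The contributions of cluster 10 and of the rest kept their opposite signs in every set on both scales. These signs are not independent, since a smaller share of cluster 10 means a larger share for the rest. Per 2000 UMIs, share gave the rest 0.09, 0.14 and 0.29, and level within clusters gave 0.06, 0.31 and 0.16. On UMIs of other genes share gave 0.13, 0.20 and 0.32, and level 0.34, 0.35 and 0.33.

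The cells highest in members came from the clusters in different proportions under each treatment. A naive cell was called high above 11 member UMIs per 2000, a cut at the 90th percentile of R848 cells. Of 22594 naive cells deep enough, 1819 were above it, 583 lay at 11 and 421 at 12 UMIs. Cluster 10 held 26.5, 21.4 and 17.8% of high naive cells with IL-4+R848, against 41.8, 46.4 and 42.6% with R848. Cluster 7 held 31.1, 31.9 and 28.6% with IL-4+R848, against 10.7, 8.50 and 10.9% with R848. The activated-like cluster held 3.5, 7.39 and 5.07% with IL-4+R848, against 13.3, 13.7 and 9.57% with R848. In both treatments most high cells were follicular-like, by far the larger class. Within classes, high cells made up 15.3 to 35.2% of activated-like cells per set with IL-4+R848 and 23.5 to 30.4% with R848. In follicular-like cells they made up 7.35 to 7.65% with IL-4+R848 and 8.25 to 8.53% with R848. High cells were thus more frequent among activated-like than among follicular-like cells in every set of both treatments.

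Between treatments, CD23 and CD21 staining of high naive cells differed in the same direction as in the other naive cells. IgD staining did not. The median CD23 antibody count of high naive cells, the low-affinity IgE receptor of mature follicular cells, was 358 ± 53 with IL-4+R848 and 217 ± 36 with R848 (SD, n = 3), beside 384 ± 60 with IL-4+R848 and 174 ± 17 with R848 in the other naive cells. CD21, the complement receptor, stood at 17.7 ± 2.3 with IL-4+R848 and 79.0 ± 20 with R848 in high cells, and at 25.7 ± 6.7 with IL-4+R848 and 51.7 ± 12 with R848 in the others. IgD stood at 187 ± 37 with IL-4+R848 and 249 ± 52 with R848 in high cells, and at 304 ± 65 with IL-4+R848 and 238 ± 33 with R848 in the others. Cycling markers were at 0.24 UMIs per 10000 with IL-4+R848 and 0.25 with R848 in high cells. In the others they were at 0.24 with IL-4+R848 and 0.28 with R848. Clusters rich in these markers were outside the naive classes, so these levels cannot show whether cells high in members divide. Before thinning, high cells had a median of 5777 ± 700 UMIs with IL-4+R848 and 5701 ± 787 with R848, and the others 5864 ± 954 with IL-4+R848 and 4283 ± 591 with R848. The part of depth was not tested beyond the thinning.

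The spread among follicular-like cells was narrower with IL-4+R848. The 99th percentile of member UMIs per 2000 was 20.0, 19.0 and 18.0 with IL-4+R848, against 23.0, 22.6 and 23.0 with R848, while the median was 5 in every set of both. Cells with 20 or more member UMIs made up 1.08, 0.70 and 0.74% with IL-4+R848, against 1.76, 1.77 and 2.29% with R848. The ratio of variance to mean was 2.34 ± 0.11 with IL-4+R848 and 3.04 ± 0.12 with R848. So the centre of the distribution was alike and its upper end was shorter in each IL-4+R848 set. On the scale of other genes the ratio was 2.15 with IL-4+R848 and 2.92 with R848.

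**Figure D5:**
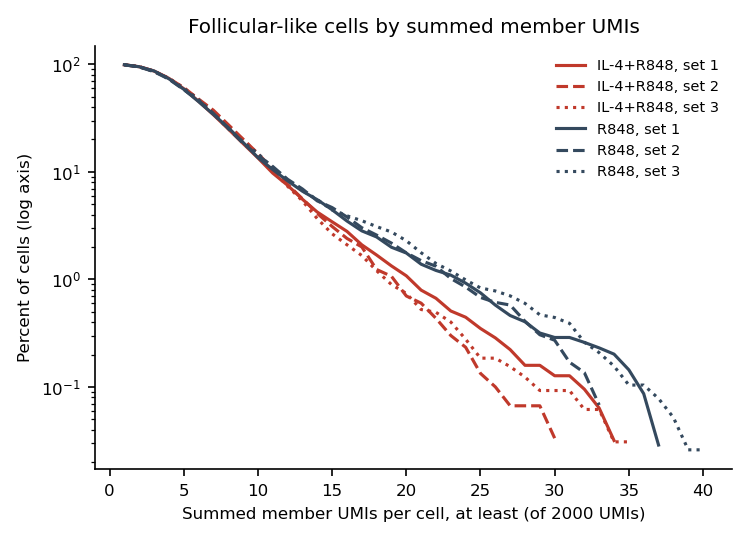
Percent of follicular-like cells (log y axis) with at least a given number of summed member UMIs per 2000 UMIs (x axis), with 1 line per set, IL-4+R848 in red and R848 in blue. The lines run together up to about 11 UMIs, and from 20 to 30 UMIs the 3 IL-4+R848 lines lie under the 3 R848 lines.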

How the data were processed

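Whole UMI counts for genes and antibody tags were deposited for barcodes that the authors had already called cells. Per the file headers, Cell Ranger 6.0.1 made these counts. The submitters' processing notes name the build mm10, and Seurat 4.1.3 with no role stated. No normalization is recorded, and each set summed to 96866964 to 107244246 gene UMIs.

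Treatment came from the hashtag names: 1 hashtag needed at least 64 UMIs and at least 4-fold the other plus 1. Barcodes with both hashtags (943 to 1567 per set) were removed and no doublet caller was run, so doublets of 1 treatment remain. Cells with fewer than 500 genes or with 10% or more mitochondrial UMIs were left out. Clusters came from scanpy 1.11.5 with leidenalg 0.10.2 (2000 variable genes, 30 components, 15 neighbours, resolution 2), without the members, the other pathway genes, antigen receptor (T cell receptor and immunoglobulin variable), ribosomal protein and mitochondrial genes, and the 2224 genes called between treatments. The resolution was chosen after clusters were seen. The members and lists were chosen with earlier results of these data known.

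Sums of counts over the cells of a class, for each set and treatment (at least 50 cells), were compared in R 4.3.3 by the quasi-likelihood F test of edgeR 4.0.16 (filterByExpr, TMM, Benjamini-Hochberg (BH) adjusted p under 0.05 over all genes tested), and the procedure was tested on simulated data. On those data 66.7% of 1.5-fold changes were recovered in follicular-like cells and 32.7% in transitional-like cells. Of 2-fold differences of the IL-4 effect between these classes, 57% were recovered. The simulated counts had a fixed dispersion and no set effect. Members not called may still have changed. CPM are on TMM-normalised library sizes unless called plain. Myc was named in every comparison, with up to 10 called members of largest change and up to 3 called genes per other list. Alternatives were DESeq2 1.42.0, a replicate block by set, other filters, hashtag rules, library sizes and class drawings, each set left out, and other depths, cuts and scales for the sums per cell. Both treatments of a set share a library: deviations of a set's pair of sums correlated at 0.454, 0.455 and 0.397 in follicular-like cells (highest between sets -0.183), and above 0.1 in every set also in transitional-like, germinal center-like and pooled naive cells.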

Additional observations from a re-analysis of the deposited data

Results flagged for a closer look

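The summed member level moved one way in all 3 sets of some classes and the other way in all 3 sets of others; the difference between classes was not tested for this sum. Per 2000 UMIs, IL-4+R848 minus R848, it was 0.704 in transitional-like cells, 1.13 in the Zbtb32 cluster and 0.166 in plasmablast-like cells. It was -0.118 in follicular-like cells, -1.12 in marginal zone-like cells and -1.87 in cycling-like cells. In plasmablast-like cells the difference was only 0.010 in set 3. On UMIs of genes other than immunoglobulin, mitochondrial and ribosomal protein genes, their set 2 turned, at 3.86 with IL-4+R848 and 4.15 with R848. In follicular-like cells the sign turned when cells were thinned to genes other than immunoglobulin, mitochondrial and ribosomal protein genes, where the means were 6.0 with IL-4+R848 and 5.89 with R848.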

How the results depend on the processing

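Counts of called members in naive cells depended on how classes were drawn. For these alternative fits between treatments the share of all genes called was not counted. Whether the members changed more than other genes did is therefore not shown. In follicular-like cells (1 rose, 1 fell), no count filter gave 2 and 2, the replicate block 5 and 3, looser cell filters 10 rose, stricter hashtags 3 fell, and clusters that kept treatment genes 7 rose. In pooled naive cells (1 rose, 2 fell), DESeq2 gave 2 and 1, no count filter 2 rose, the replicate block 7 rose, looser cell filters 10 and 0, and clusters with treatment genes 2 and 1. In transitional-like cells, clusters with treatment genes gave 0 that rose and 1 that fell, with Myc at -1.03 and Npm1 at -0.0024. In activated-like cells, no count filter and looser cell filters gave 1 that fell each, and clusters with treatment genes left too few cells. In cycling-like cells, no count filter gave 5 that fell, and DESeq2 and clusters with treatment genes 1 each. In marginal zone-like cells, looser cell filters gave 7 that fell and clusters with treatment genes 0. In germinal center-like cells Myc turned to -0.024 under stricter hashtags. The IgD gate without plasmablast-, germinal center- and cycling-like cells had 1 member that rose, and the block added 1 interaction for transitional-like cells. Where no other value is given beside it, the block moved no count of calls by over 1.5 times in the classes compared. In the Zbtb32 cluster, where sets did not pair, the block left Srm and added Dkc1, with Fbl and Nme1 no longer past the threshold. Leaving out each set gave 0 to 2 that rose and 1 to 2 that fell in follicular-like cells, 2 to 3 that rose in transitional-like cells, 0 to 2 that rose and 1 to 2 that fell in pooled naive cells, 0 to 2 that fell in the IgD gate and 0 to 1 that fell in all kept cells. It moved Myc between -0.066 and 0.19 in germinal center-like cells and between -0.23 and 0.046 in cycling-like cells.

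The share of high cells, in percentage points of IL-4+R848 minus R848, was -0.90 in follicular-like cells. There it became 0.11 with the 80th percentile as the cut, -0.32 without Npm1 and -0.31 on UMIs of other genes. In pooled naive cells these gave 0.27, -0.29 and -0.19. The 80th percentile gave 5.44 in transitional-like cells, -10.2 in marginal zone-like cells and 11.2 in the Zbtb32 cluster. Thinning to 1000 UMIs gave 0.74 in activated-like, 0.28 in germinal center-like and 0.035 in plasmablast-like cells, where leaving out Npm1 gave 0.051. Leaving out each set gave -4.47 to 3.57 in activated-like, -3.27 to 0.59 in germinal center-like and -0.67 to 0.11 in plasmablast-like cells. Causes were not tested. Dividing plasmablast-like cells were too few to test.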
